A study of Bos taurus with 9 samples.

Results

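The genes followed here encode the machinery of autophagy and the membrane proteins and enzymes of the lysosome. They were listed by their bovine symbols, and all 51 were present among the 17852 genes of the table. Of the 51, 28 belong to autophagy, 21 to the lysosome, and 2 are the transcription factors TFEB and TFE3. The filter on low counts passed 49, and TFEB and CTSL were not tested. RNA of bovine oocytes at metaphase II, the stage at which an egg is ready for fertilization, was sequenced in 9 libraries of 3 groups. Oocytes given both microplastics and taurine gave 3 libraries, called the taurine libraries here. Oocytes given microplastics alone gave 3 libraries, and untreated control oocytes gave 3. The labels name the cells as germ cells of female cattle and give no age, strain, particle type, dose, exposure time or number of oocytes per library. Nor do they name separate animals, cultures or collections behind the replicates. The spread on which the p-values rest is thus one between libraries and may be technical.

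Autophagy encloses a piece of cytoplasm in a double membrane, the autophagosome, and delivers it to the lysosome. A kinase complex starts the process, a lipid kinase complex marks the forming membrane, and ubiquitin-like conjugation enzymes attach proteins of the ATG8 family to it. The lysosome, acidified by a proton pump, then breaks the cargo down with its proteases, glycosidases and lipid-handling proteins. A mature oocyte transcribes little, and its RNA is largely stored from growth. No bases or residues are shown, because no sequence tables were used here.

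The libraries held 21.17 to 22.74 M estimated reads, and levels are counts divided by TMM-scaled library size and given per 1 M reads (CPM). Those factors were 1.214 to 1.253 in the microplastics libraries, 0.841 to 0.958 in the taurine libraries and 0.835 to 0.972 in the control libraries. They bear on direction: with scaling by library size only, the median of all genes moved from 0.04 to 0.52 on the log2 scale for microplastics minus control, and from -0.02 to -0.45 for taurine minus microplastics. Across genes, control 3 correlated more with the taurine libraries (mean 0.971) than with the other controls (0.963), and taurine 3 more with the controls (0.969) than with the other taurine libraries (0.957). Oocyte markers summed to 88429 to 116076 CPM in the taurine libraries, 42392 to 50911 CPM in the microplastics libraries and 96094 to 125303 CPM in the controls. Of 15 tested, 4 were higher and 8 lower in microplastics minus control, and 6 were higher and 4 lower in taurine minus microplastics. Of all genes tested, 9.67% were higher and 14.7% lower in the first comparison. In the second, 10.1% were higher and 4.13% lower. Cumulus and granulosa markers summed to 521 to 571 CPM in the taurine libraries and 422 to 523 CPM in the microplastics libraries. In the controls they summed to 512 to 616 CPM. Over all libraries, single markers of this list ran from 2 reads for FSHR to 59211 reads for STAR. Of the 14 cumulus markers tested, 5 were lower and 0 higher in microplastics minus control, and 4 were higher and 0 lower in taurine minus microplastics. Leukocyte markers summed to 8.87 to 12.3 CPM in the taurine libraries, 13.9 to 15.4 CPM in the microplastics libraries and 10.8 to 20.9 CPM in the controls. Of 5 leukocyte markers tested, 1 was lower and 0 higher in microplastics minus control. Over all libraries, single leukocyte markers ran from 1 read for CD14 to 1292 reads for CSF1R. PTPRC, which marks leukocytes, had at most 5 reads in a library. Erythroid markers summed to 17.3 to 23.9 CPM in the taurine libraries, 10.6 to 17.7 CPM in the microplastics libraries and 31.1 to 67.2 CPM in the controls. Both erythroid markers tested were lower in microplastics minus control, and 1 was higher in taurine minus microplastics. Stromal and endothelial markers summed to 45.7 to 55.4 CPM in the taurine libraries, 39.9 to 55.5 CPM in the microplastics libraries and 42.5 to 48.2 CPM in the controls. Of 5 tested, 1 was higher in microplastics minus control. The part of these cells in the results was not tested. In bulk libraries, fewer cells of a type and less RNA per cell cannot be told apart.

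GABARAPL2 and SQSTM1 stood at the highest levels per length among the members in the controls. These levels are the authors' TPM values, used to compare genes within a group and not rescaled by TMM. GABARAPL2, an ATG8 family member, stood at 576 ± 65.6 TPM in the controls (SD, n = 3). SQSTM1, the cargo receptor also called p62, stood at 461 ± 175 TPM and made up 19.9% of all TPM of the 51 genes. The difference between them was smaller than the spread of SQSTM1. MAP1LC3B, the ATG8 protein commonly used to follow autophagosomes, had 186 ± 21.5 TPM, close to LAMP2, a major protein of the lysosomal membrane, with 170.4 ± 7.79 TPM. ATG12, a ubiquitin-like protein of the conjugation system, followed at 119 ± 5.03 TPM, and CTSB, the most abundant cathepsin here, at 118 ± 43.8 TPM. In all, 26 of the 51 genes reached 10 TPM in the controls, while 9 stayed under 1 TPM. The 9 were CTSA, ATG10, ATG4B, ULK1, GLB1, CTSL, WIPI1, TFEB and GAA. The glycosidases, which clip sugars from glycans and lipids, summed to 4.64 to 5.74 TPM in the controls, the cathepsins to 131 to 236 TPM and the ATG8 family to 739.7 to 889 TPM. A further 32 lysosomal hydrolases outside the members summed to 277 to 306 TPM.

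Microplastics against control asks what exposure did to these transcripts. RNA of 3 of the 5 ATG8 genes fell (MAP1LC3B, GABARAPL2 and GABARAP), with log2 fold changes of -1.20 ± 0.14, -0.85 ± 0.15 and -0.86 ± 0.23 SE. ATG12, ATG14, ATG4C, the lysosomal membrane genes LAMP2 and LAMP3 and the cholesterol carrier NPC2 fell as well. RNA of the transcription factor TFE3, the glycosidase GUSB, the kinase ULK2, the protease ATG4B and the conjugation scaffold ATG16L1 rose. In edgeR's quasi-likelihood test with Benjamini-Hochberg adjustment over 13190 genes, 14 of 49 tested members were called (28.6%), 5 higher and 9 lower, where the test called 24.3% of all genes, 9.67% higher and 14.7% lower. With scaling by library size only, 24 members were called, 20 higher and 4 lower, beside 37% of all genes, 4000 higher and 875 lower of 13190. The number of calls fell to 8 without microplastics 1, 9 without microplastics 2, 7 without microplastics 3, 8 without control 1 and 7 without control 2, where 12.7% to 15.3% of all genes were called. Without control 3 and taurine 3 it was 23, with 13 higher and 10 lower. There 38.1% of all genes were called, 2613 higher and 2497 lower of 13426. These 2 libraries were picked from their values in the same data, which favours more calls against control.

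**Figure D1:**
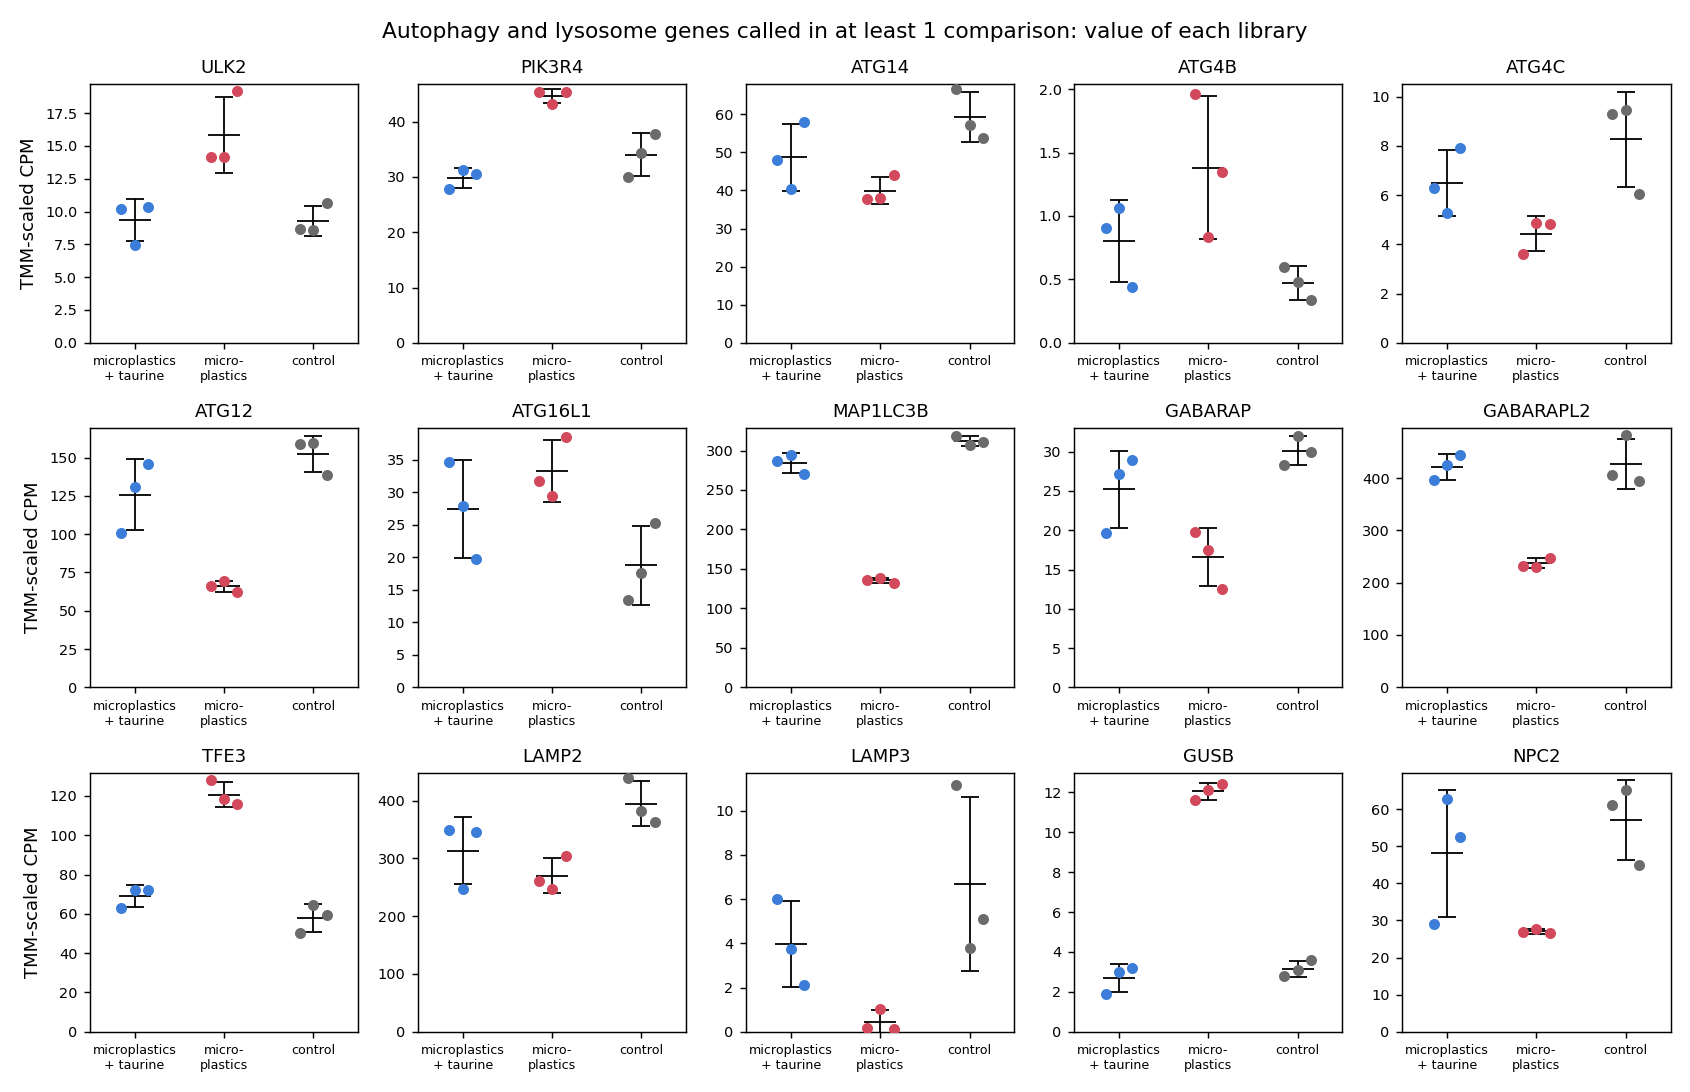
Level of each gene called in at least 1 comparison, in TMM-scaled CPM on axes that start at 0, in the taurine, microplastics and control libraries; points are single libraries and bars show the mean and SD of 3, cut at 0 for LAMP3. In MAP1LC3B, GABARAPL2 and ATG12 all 3 microplastics libraries lie under all others, and in TFE3 and GUSB all 3 lie over all others.

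The ATG8 proteins are attached to lipid in the autophagosome membrane, where they hold cargo receptors. MAP1LC3B had 287, 294 and 271 CPM in the taurine libraries, 136, 138 and 132 CPM in the microplastics libraries and 319, 307 and 310.4 CPM in the control libraries. The 3 microplastics libraries lay close together and under all 6 others. The level was lower than in control by more than the spread of the libraries (log2 fold change -1.20 ± 0.14 SE, adjusted p = 0.000150), and this call held under every alternative run. GABARAPL2, the most abundant member of the family, had 396, 424 and 445 CPM in the taurine libraries, 233, 231 and 248 CPM in the microplastics libraries and 405, 483 and 394 CPM in the control libraries. Here too no microplastics library reached any other (log2 fold change -0.85 ± 0.15 SE, adjusted p = 0.00193). With a smooth trend on transcript length removed in each library, the difference was -1.20 for MAP1LC3B and -0.55 for GABARAPL2. GABARAP, the founding member of its subfamily, had 19.7, 27.1 and 28.9 CPM in the taurine libraries, 19.8, 17.5 and 12.5 CPM in the microplastics libraries and 28.3, 32.03 and 29.98 CPM in the control libraries. Microplastics and control libraries did not overlap, while taurine 1 lay within the range of the microplastics libraries. GABARAP was called lower (log2 fold change -0.86 ± 0.23 SE, adjusted p = 0.0176). The call was lost with the length trend removed (-0.52), with scaling by library size only (-0.38), as well as without microplastics 2, microplastics 3 or control 2, where the log2 fold change was -0.88 to -0.68. The other 2 family members were not called. GABARAPL1, a close relative of GABARAP, was the only family member with a positive difference: 8.56, 5.14 and 8.96 CPM in the microplastics libraries and 2.29, 4.76 and 4.77 CPM in the controls. MAP1LC3A had 6.79, 8.66 and 8.08 CPM in the microplastics libraries and 18.4, 9.62 and 8.01 CPM in the controls, with 1 high control. Family members that are near-identical in sequence can exchange reads in the authors' counting, which could not be checked.

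Per length, GABARAPL2 was the main transcript of the family in every group. GABARAPL2 held 71.8% ± 0.822 of the family's TPM in the taurine libraries, 72.4% ± 1.82 in the microplastics libraries and 69.4% ± 2.49 in the controls (SD, n = 3 each). MAP1LC3B held 21.5% ± 1.75 in the taurine libraries, 18.2% ± 0.670 in the microplastics libraries and 22.5% ± 1.93 in the controls. GABARAPL1 held 0.295% ± 0.0294 in the taurine libraries, 0.977% ± 0.262 in the microplastics libraries and 0.272% ± 0.0981 in the controls. The order GABARAPL2, MAP1LC3B, GABARAP was the same in all 3 groups, and these shares were not tested.

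Of the 9 conjugation enzymes, 2 were called higher and 2 lower, beside 9.67% higher and 14.7% lower of all genes. ATG12 is joined to ATG5, and the pair with ATG16L1 directs ATG8 proteins to the membrane. ATG12 had 101, 131 and 146 CPM in the taurine libraries, 65.9, 69.7 and 62.1 CPM in the microplastics libraries and 159, 159 and 139 CPM in the control libraries. All 3 microplastics libraries lay under all others (log2 fold change -1.21 ± 0.17 SE, adjusted p = 0.000657), and the call held under every alternative run. ATG16L1 had 34.7, 27.8 and 19.8 CPM in the taurine libraries, 31.7, 29.4 and 38.6 CPM in the microplastics libraries and 13.4, 17.6 and 25.3 CPM in the control libraries. Microplastics and control libraries did not overlap, and taurine 1 lay within the microplastics range (log2 fold change 0.82 ± 0.27 SE, adjusted p = 0.0446). ATG5, the partner of ATG12, had 32.3, 37.03 and 44.04 CPM in the microplastics libraries and 39.9, 42.1 and 38.1 CPM in the controls, which overlapped. Among the ATG4 proteases, which prime ATG8 proteins and also release them from lipid, ATG4C had 6.27, 5.26 and 7.93 CPM in the taurine libraries, 3.62, 4.86 and 4.82 CPM in the microplastics libraries and 9.31, 9.46 and 6.05 CPM in the control libraries. It was lower in the microplastics libraries with no overlap against control (log2 fold change -0.90 ± 0.28 SE, adjusted p = 0.0353). ATG4B had 0.903, 1.06 and 0.438 CPM in the taurine libraries, 1.96, 0.833 and 1.35 CPM in the microplastics libraries and 0.599, 0.476 and 0.334 CPM in the control libraries. Each microplastics library lay over each control, at levels that rest on 52, 23 and 38 reads in the microplastics libraries and 11, 9 and 7 reads in the controls (log2 fold change 1.55 ± 0.52 SE, adjusted p = 0.0468). The calls of ATG16L1, ATG4C and ATG4B were lost when single libraries were left out and under other settings. ATG16L1 lost its call without any of the 3 microplastics libraries, control 1 or control 2, and also without taurine 2 (0.63 to 0.92), and with the length trend removed (0.63). ATG4C lost it without any of the 3 microplastics libraries, control 1 or control 2 (-0.95 to -0.76), and with scaling by library size only (-0.40). ATG4B lost its call without any 1 library other than microplastics 2 and taurine 3 (1.23 to 1.76). It also lost it with DESeq2 size factors (1.52), without a filter (1.55), in limma-voom (1.46) and without control 3 and taurine 3 (1.37), and was called in 6 of 18 alternatives. With a replicate block all 3 lost their calls. ATG3, ATG4A, ATG7 and ATG10 were not called, with log2 fold changes between -0.05 and 0.26.

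In the initiation kinase complex all 4 genes had positive differences, and 1 passed the test. Of all 13190 genes tested, 6858 had positive differences and 9.67% were called higher. The 4 genes are long, and the median log2 fold change of all genes in the longest length class was 0.27. ULK2, one of its kinases, had 10.2, 7.48 and 10.3 CPM in the taurine libraries, 14.1, 14.2 and 19.2 CPM in the microplastics libraries and 8.66, 8.62 and 10.6 CPM in the control libraries. The microplastics libraries lay over all others (log2 fold change 0.77 ± 0.24 SE, adjusted p = 0.0341), but the call was lost without any of the 3 microplastics libraries, control 1 or control 2 (0.62 to 0.86) and with the length trend removed (0.55). ULK1, the related kinase, had 3.14, 1.50 and 0.985 CPM in the taurine libraries, 3.73, 2.54 and 4.04 CPM in the microplastics libraries and 0.599, 1.69 and 2.14 CPM in the control libraries. Microplastics and control libraries did not overlap, yet the difference missed the threshold (log2 fold change 1.21 ± 0.50 SE, adjusted p = 0.0994). ATG13 and RB1CC1, the adaptor and the scaffold of the complex, had log2 fold changes of 0.18 ± 0.20 and 0.38 ± 0.17 SE, and neither was called.

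The class III PI3-kinase complex makes the lipid PI3P on the forming membrane. ATG14, the subunit that directs it to autophagy, had 47.9, 40.4 and 57.95 CPM in the taurine libraries, 37.8, 37.97 and 44.01 CPM in the microplastics libraries and 66.5, 57.3 and 53.8 CPM in the control libraries. Microplastics and control libraries did not overlap, and taurine 2 lay within the microplastics range (log2 fold change -0.57 ± 0.18 SE, adjusted p = 0.0411). The call was lost without any of the 3 microplastics libraries, control 1 or control 2 (-0.63 to -0.48) and with scaling by library size only (-0.08). BECN1, the beclin subunit, had 47.9, 42.7 and 36.1 CPM in the taurine libraries, 38.6, 47.4 and 54.7 CPM in the microplastics libraries and 27.5, 30.2 and 39.9 CPM in the control libraries. Microplastics 1 lay under control 3, and the difference was not called (log2 fold change 0.53 ± 0.21 SE, adjusted p = 0.0837). PIK3C3, the catalytic subunit, and PIK3R4, its regulatory subunit, were not called either. The 3 genes for ATG9 vesicles and PI3P effectors were not called. WIPI2, which binds PI3P and recruits ATG16L1, had 266, 167 and 81.9 CPM in the taurine libraries, 213, 169 and 174 CPM in the microplastics libraries and 73.3, 88.9 and 213 CPM in the control libraries. Its controls 1 and 2 were low and control 3 was as high as the microplastics libraries.

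No cargo receptor was called. SQSTM1 had 856, 1120.1 and 743 CPM in the taurine libraries, 736, 725 and 758 CPM in the microplastics libraries and 765, 703 and 1106 CPM in the control libraries. Control 3 was the highest control, taurine 2 was the highest library, and the microplastics libraries lay among the others (log2 fold change -0.21 ± 0.20 SE, adjusted p = 0.464). The sign of this difference was not stable: it was 0.25 when scaled by library size alone and 0.0277 if control 3 was left out. NBR1, a related receptor, had 75.8, 59.6 and 85.002 CPM in the microplastics libraries and 42.5, 44.3 and 64.1 CPM in the controls, and 1 microplastics library lay under control 3. OPTN, a receptor known for damaged mitochondria, had 72.5, 49.02 and 77.6 CPM in the microplastics libraries and 34.6, 27.6 and 57.01 CPM in the controls, which overlapped.

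TFE3 and TFEB are related factors that turn on lysosomal and autophagy genes. TFE3 had 62.8, 72.3 and 72.1 CPM in the taurine libraries, 128, 118 and 116 CPM in the microplastics libraries and 50.2, 64.5 and 59.3 CPM in the control libraries. The microplastics libraries lay over all 6 others (log2 fold change 1.06 ± 0.16 SE, adjusted p = 0.000941), and the call held under every alternative run. TFEB had 5, 2 and 1 reads in the taurine libraries, 5, 7 and 2 reads in the microplastics libraries and 3, 12 and 10 reads in the control libraries. These counts are too few for a comparison, and a difference was not detectable at this depth.

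**Figure D2:**
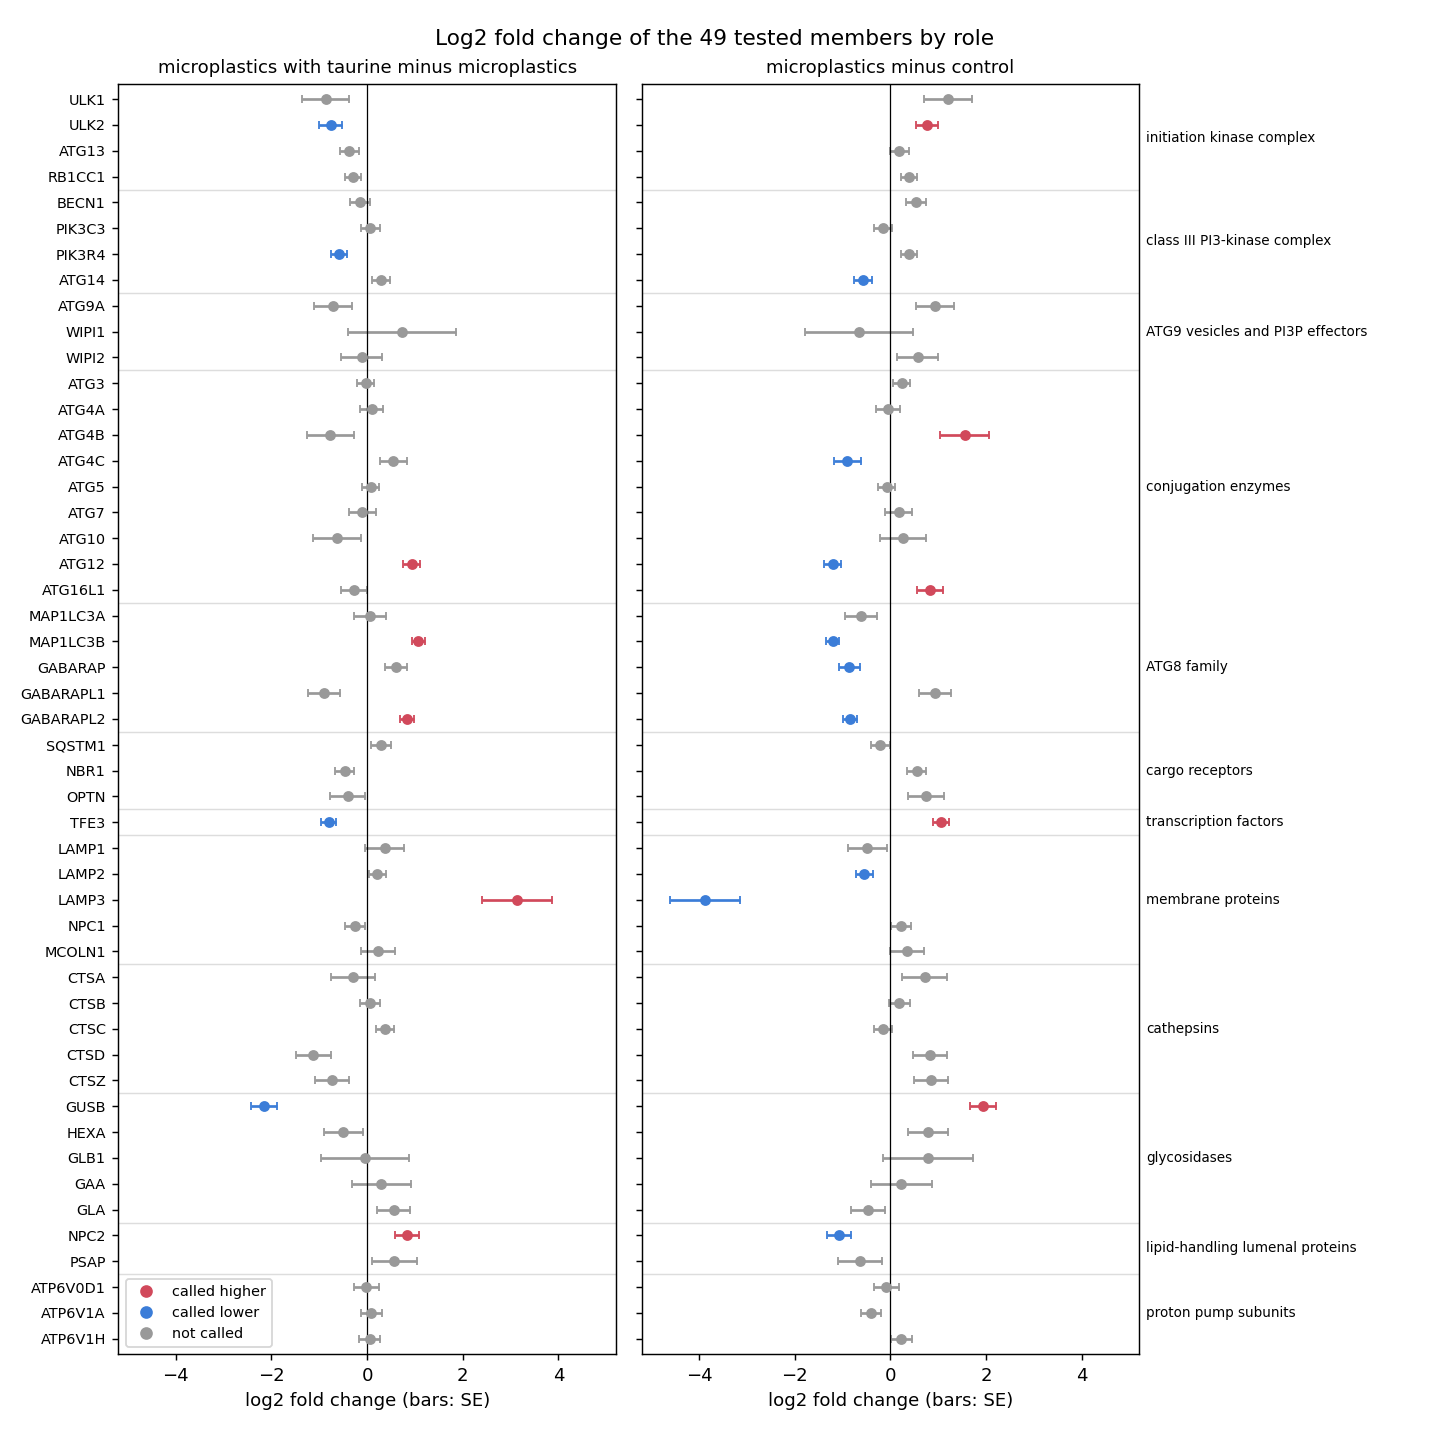
Log2 fold change of the 49 tested members, ordered by role, for taurine minus microplastics (left) and microplastics minus control (right). Bars show the SE. Colour marks the call at an adjusted p under 0.05: red for higher, blue for lower and grey for not called. The ATG8 genes MAP1LC3B and GABARAPL2 lie left of 0 on the right and right of 0 on the left, TFE3 and GUSB do the opposite, and both panels share the microplastics libraries.

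Among lysosomal membrane genes, LAMP3 showed the largest fold change of all 49 members. It encodes a relative of LAMP1 and LAMP2, known in human tissue from mature dendritic cells. LAMP3 had 5.99, 3.76 and 2.13 CPM in the taurine libraries, 0.189, 1.05 and 0.106 CPM in the microplastics libraries and 11.2, 3.81 and 5.10 CPM in the control libraries. No microplastics library reached a control (log2 fold change -3.88 ± 0.74 SE, adjusted p = 0.00359), and the call held under every alternative that tested the gene. Its levels rest on 5, 29 and 3 reads in the microplastics libraries and 205, 72 and 107 reads in the controls. LAMP2 had 349, 246 and 346 CPM in the taurine libraries, 262, 246 and 303 CPM in the microplastics libraries and 439, 383 and 364 CPM in the control libraries. Microplastics and control libraries did not overlap, and taurine 2 lay at the bottom of the microplastics range (log2 fold change -0.55 ± 0.18 SE, adjusted p = 0.0415). The call was lost without any of the 3 microplastics libraries, control 1 or control 2 (-0.62 to -0.47) and with scaling by library size only (-0.06). LAMP1, another major membrane glycoprotein of lysosomes, had 24.3, 34.3 and 16.1 CPM in the taurine libraries, 18.2, 17.3 and 22.6 CPM in the microplastics libraries and 14.8, 18.2 and 48.2 CPM in the control libraries. Control 3 stood far over the other 2 controls, and the sign turned without it: the log2 fold change was -0.48 ± 0.41 SE (adjusted p = 0.403) with it and 0.25 without it. NPC1, which exports cholesterol from the lysosome, and MCOLN1, its calcium channel, were not called.

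LAMP2 had 2 transcripts in the table, and 1 of them was called. The longer, of 3012 nucleotides, stood at 140.1 ± 21.6 CPM in the microplastics libraries and 259.9 ± 25.2 CPM in the controls (log2 fold change -0.89 ± 0.22 SE, adjusted p = 0.0284 over all transcripts, where 15.9% were called). The shorter, of 1508 nucleotides, stood at 130.4 ± 19.4 CPM in the microplastics libraries and 135 ± 19.6 CPM in the controls (log2 fold change -0.05 ± 0.20 SE, adjusted p = 0.881). The longer transcript made up 72.98%, 56.02% and 58.6% of LAMP2 reads in the taurine libraries, 58.03%, 46.5% and 50.7% in the microplastics libraries and 65.7%, 62.8% and 68.9% in the controls. Every microplastics share lay under every control share. A two-sided exact permutation test of that difference gave p = 0.1, the smallest p that 3 against 3 libraries allow. The taurine shares overlapped those of the microplastics libraries (exact permutation p = 0.2). How reads were split between the transcripts is not given in the sources used here.

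Among the cathepsins and glycosidases, 1 gene was called. GUSB, which removes glucuronic acid from glycosaminoglycans, had 1.90, 2.99 and 3.17 CPM in the taurine libraries, 11.6, 12.1 and 12.4 CPM in the microplastics libraries and 2.78, 3.12 and 3.57 CPM in the control libraries. The microplastics libraries lay close together, over all 6 others (log2 fold change 1.93 ± 0.27 SE, adjusted p = 0.000522), and the call held under every alternative run. HEXA, GLB1, GAA and GLA, the other glycosidases listed, were not called. Per length, GUSB stood at 8.36 ± 0.506 TPM in the microplastics libraries, so that it remained far below CTSB there (200.4 ± 20.8 TPM). None of the 5 cathepsins tested was called by edgeR, and 2 of them, CTSD and CTSZ, were called higher only under some alternatives, such as scaling by library size only. CTSD, an aspartic protease, had 7.51, 4.87 and 4.16 CPM in the taurine libraries, 12.9, 10.8 and 12.4 CPM in the microplastics libraries and 4.57, 4.55 and 11.2 CPM in the control libraries. Taurine 1 and control 3 were each the highest of their groups. CTSL had 2, 13 and 4 reads in the taurine libraries, 3, 5 and 5 in the microplastics libraries and 8, 15 and 2 in the controls, too few to compare. NPC2, a soluble protein that hands cholesterol to NPC1, had 29.1, 62.6 and 52.4 CPM in the taurine libraries, 26.7, 27.8 and 26.6 CPM in the microplastics libraries and 61.2, 65.01 and 44.9 CPM in the control libraries. Its microplastics libraries were low and close together, and only taurine 1 came near them (log2 fold change -1.08 ± 0.26 SE, adjusted p = 0.0112). That call was lost with scaling by library size only (-0.58) and held under the other alternatives. PSAP, the precursor of the saposins, had 19.3, 25.8 and 8.87 CPM in the taurine libraries, 11.9, 14.4 and 10.03 CPM in the microplastics libraries and 10.7, 11.6 and 34.4 CPM in the control libraries. Control 3 was the highest and taurine 2 the next, and it was not called. The 3 proton pump subunits listed were not called, with log2 fold changes between -0.41 and 0.23.

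Taurine with microplastics against microplastics alone asks what taurine changed in exposed oocytes. RNA of MAP1LC3B, GABARAPL2, ATG12, LAMP3 and NPC2 rose, and RNA of TFE3, GUSB, ULK2 and PIK3R4 fell. The test called 9 of 49 members (18.4%), 5 higher and 4 lower, where it called 14.3% of all genes, 10.1% higher and 4.13% lower. With scaling by library size only the calls were 13, 4 higher and 9 lower, beside 23.4% of all genes, 601 higher and 2488 lower. The number of calls was 5 without microplastics 1 and 5 without microplastics 3, where 6.61% and 7.21% of all genes were called. The microplastics libraries enter both comparisons, so a chance deviation in them moves both, in opposite directions.

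Of the 5 ATG8 genes and the 9 conjugation enzymes, 3 passed the test, all higher, beside 10.1% higher and 4.13% lower of all genes. MAP1LC3B averaged 284 ± 12.1 CPM in the taurine libraries and 135 ± 2.85 CPM in the microplastics libraries (log2 fold change 1.07 ± 0.14 SE, adjusted p = 0.000457). GABARAPL2 averaged 422 ± 24.5 CPM in the taurine libraries and 237 ± 9.50 CPM in the microplastics libraries (log2 fold change 0.83 ± 0.15 SE, adjusted p = 0.00332). ATG12 averaged 126 ± 22.99 CPM in the taurine libraries and 65.9 ± 3.82 CPM in the microplastics libraries (log2 fold change 0.93 ± 0.17 SE, adjusted p = 0.00427). In each of the 3, every taurine library lay over every microplastics library, and the calls held under every alternative run. With the length trend removed the log2 fold changes were 0.98, 0.58 and 0.79. GABARAP, called lower in microplastics minus control, averaged 25.2 ± 4.89 CPM in the taurine libraries and 16.6 ± 3.70 CPM in the microplastics libraries and was not called (log2 fold change 0.60 ± 0.23 SE, adjusted p = 0.0968). ATG4B, ATG4C and ATG16L1 were also not called, with log2 fold changes of -0.77 ± 0.49, 0.55 ± 0.28 and -0.28 ± 0.27 SE. For ATG16L1 and ATG4B the taurine and microplastics libraries overlapped, and for ATG4C they did not.

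Upstream, ULK2 averaged 9.33 ± 1.61 CPM in the taurine libraries and 15.8 ± 2.89 CPM in the microplastics libraries (log2 fold change -0.76 ± 0.24 SE, adjusted p = 0.0491). The groups did not overlap, but the call was lost without any 1 library other than control 3 (-0.86 to -0.62). It was kept in 6 of 19 alternatives. PIK3R4 had 27.8, 31.2 and 30.5 CPM in the taurine libraries, 45.5, 43.2 and 45.4 CPM in the microplastics libraries and 30.005, 34.3 and 37.8 CPM in the control libraries. It was called lower in taurine minus microplastics (log2 fold change -0.58 ± 0.17 SE, adjusted p = 0.0359) and not in microplastics minus control (log2 fold change 0.39 ± 0.17 SE, adjusted p = 0.103). The PIK3R4 call was lost without any 1 of the microplastics or taurine libraries and without control 2 (-0.62 to -0.53). It was kept in 9 of 19 alternatives. ULK1 had a log2 fold change of -0.87 ± 0.50 SE (adjusted p = 0.269), and BECN1 of -0.15 ± 0.21 SE (adjusted p = 0.669). TFE3 averaged 69.1 ± 5.42 CPM in the taurine libraries and 121 ± 6.38 CPM in the microplastics libraries (log2 fold change -0.81 ± 0.16 SE, adjusted p = 0.00650), with every taurine library under every microplastics library and a call held under every alternative run. SQSTM1 had a log2 fold change of 0.29 ± 0.20 SE (adjusted p = 0.361), which was -0.13 with scaling by library size only.

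In the lysosome, GUSB averaged 2.69 ± 0.688 CPM in the taurine libraries and 12.1 ± 0.411 CPM in the microplastics libraries (log2 fold change -2.16 ± 0.27 SE, adjusted p = 0.000386). Every taurine library lay far under every microplastics library, and the call held under every alternative run. LAMP3 averaged 3.96 ± 1.94 CPM in the taurine libraries and 0.449 ± 0.523 CPM in the microplastics libraries (log2 fold change 3.13 ± 0.73 SE, adjusted p = 0.0150). The groups did not overlap, and the call was lost without microplastics 1 or microplastics 3, where the difference was 2.65 to 2.75. NPC2 averaged 48.04 ± 17.2 CPM in the taurine libraries and 27.04 ± 0.624 CPM in the microplastics libraries (log2 fold change 0.83 ± 0.26 SE, adjusted p = 0.04999). The NPC2 call lies at the threshold: it was lost without any microplastics library, taurine 2, taurine 3, control 1 or control 2 (0.59 to 0.83), with scaling by library size only (0.39) and with the length trend removed (0.64). Further settings lost it too, among them limma-voom and the replicate block, and it was kept in 5 of 19 alternatives. LAMP2, called lower in microplastics minus control, averaged 314 ± 58.2 CPM in the taurine libraries and 270.4 ± 29.6 CPM in the microplastics libraries (log2 fold change 0.21 ± 0.18 SE, adjusted p = 0.452). LAMP1 had a log2 fold change of 0.36 ± 0.40 SE (adjusted p = 0.589), which was -0.05 with scaling by library size only. No cathepsin or proton pump subunit among the members was called.

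**Figure D3:**
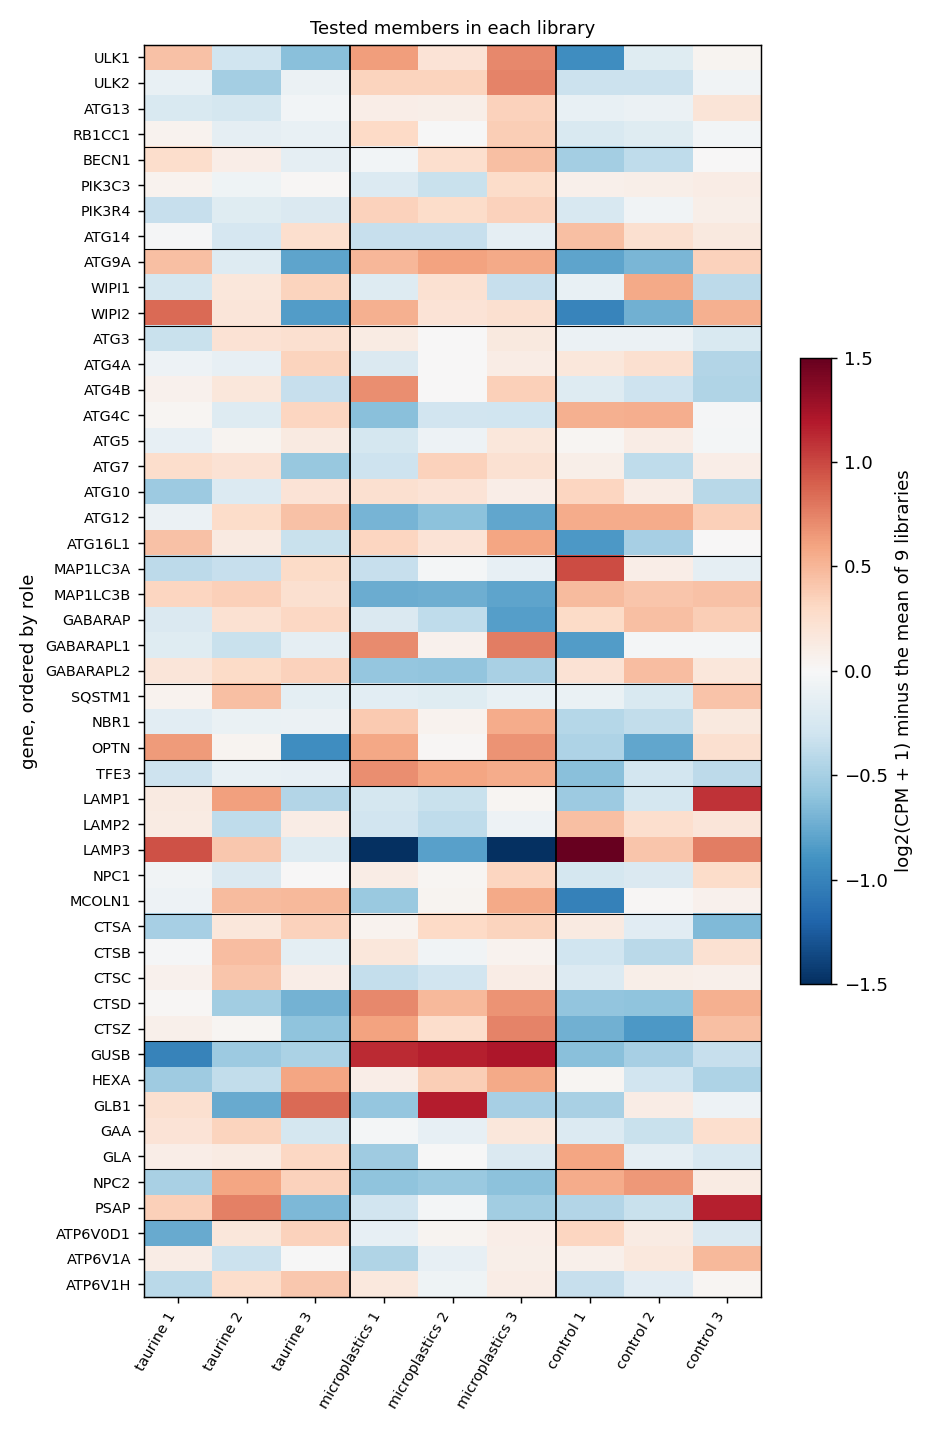
Each tested member (down the page, by role) in each of the 9 libraries (taurine, microplastics, control), as log2(CPM + 1) minus its mean over the 9, with the colour scale cut at -1.5 and 1.5. Taurine 3 resembles controls 1 and 2 in WIPI2, OPTN and ATG9A. Control 3 resembles taurine 1 and 2 in WIPI2 and OPTN, and taurine 1 in ATG9A.

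Taurine with microplastics against control asks how far exposed and taurine-treated oocytes stood from unexposed ones. No member was called by edgeR, DESeq2 or limma-voom, and 0 members had an unadjusted p under 0.05. Of all genes, 1 was called (0.00758%) and 750 had an unadjusted p under 0.05. The log2 fold changes of the 49 members lay between -0.75 for LAMP3 and 0.78 for ATG4B. MAP1LC3B had a log2 fold change of -0.13 ± 0.14 SE (adjusted p = 0.883). ULK1 had a log2 fold change of 0.34 ± 0.51 SE (adjusted p = 0.922). BECN1 had a log2 fold change of 0.38 ± 0.21 SE (adjusted p = 0.855). All 3 differences lay within 2 SE of 0. The beclin gene averaged 42.2 ± 5.91 CPM in the taurine libraries and 32.6 ± 6.54 CPM in the controls. SQSTM1 had a log2 fold change of 0.08 ± 0.20 SE (adjusted p = 0.960). LAMP1 had a log2 fold change of -0.12 ± 0.40 SE (adjusted p = 0.971). A difference that misses the threshold does not show that the groups were alike. LAMP3, with 1 of the widest errors, had a log2 fold change of -0.75 ± 0.63 SE. Without control 3 and taurine 3, 4 members were called higher in the taurine libraries: PSAP, WIPI2, ATG16L1 and OPTN. There 5.83% of all genes were called. These 2 libraries were left out because each stood with the other group in these same data. That choice favours a difference between the groups, so the 4 calls are no independent evidence of one. Whether the labels of these 2 libraries were exchanged was not tested. The groups are as labelled, and the count of 0 members rests on those labels.

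The same pair of libraries stood apart in many members. In 14 of the 51 genes control 3 was the highest control and taurine 3 the lowest taurine library, a share near the 23.9% of all genes tested. These included SQSTM1, WIPI2, OPTN, ATG9A, LAMP1, PSAP, CTSD and CTSZ. ATG9A, a lipid scramblase of the vesicles that seed the autophagosome, had 11.2, 6.80 and 4.16 CPM in the taurine libraries, 11.6, 12.5 and 12.2 CPM in the microplastics libraries and 4.14, 4.55 and 10.3 CPM in the control libraries. Controls 1 and 2 matched taurine 3, and control 3 matched taurine 1. The labels name no batch.

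In microplastics minus control, the median log2 fold change was 0.21 over 28 autophagy genes and 0.20 over 20 lysosome genes, with 0.04 over all genes. With each library left out in turn, the autophagy median was 0.18 to 0.29. The lysosome median was -0.09 to 0.35, and it was below 0 without microplastics 2, microplastics 3 or control 2. Relative to all genes, scaling by library size only gave 0.17 for autophagy and 0.14 for the lysosome. With the length trend removed the relative medians were 0.15 for autophagy and -0.0056 for the lysosome, and where only genes at 5 CPM or more in 3 libraries were kept they were 0.17 for autophagy and 0.0415 for the lysosome. Autophagy genes were called 3 higher and 6 lower (32.1%), and lysosome genes 1 higher and 3 lower (20%), beside 24.3% of all genes. In taurine minus microplastics, the medians were -0.11 for autophagy, 0.08 for the lysosome and -0.02 for all genes. Autophagy genes were called 3 higher and 2 lower (17.9%), and lysosome genes 2 higher and 1 lower (15%), beside 14.3% of all genes. These shares lie near those of all genes, and the difference between the lists was not tested.

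Transcript length moved with the fold changes of all genes, and the called members span its range. For the 11278 tested genes whose length was known, the median log2 fold change in microplastics minus control was -0.37 in the shortest class, with a median length of 692 nucleotides, and 0.27 in the longest, of 4706 nucleotides. In taurine minus microplastics the shortest genes had 0.28 and the longest -0.25. The ATG8 genes had a median of 736 nucleotides. GABARAP, GABARAPL2 and MAP1LC3A are short, at 604 to 736, while MAP1LC3B has 1633 and GABARAPL1 1697. The initiation complex genes are long, with a median of 3686. The median was 1762 over the members and 1906 over all genes. With the length trend removed, 13 members were called in microplastics minus control and 7 in taurine minus microplastics. Of these, 11 in the first and 6 in the second were also called with the trend kept, and the others were gained. ULK2, ATG16L1 and GABARAP lost their calls in the first, and ULK2, PIK3R4 and NPC2 in the second.

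**Figure D4:**
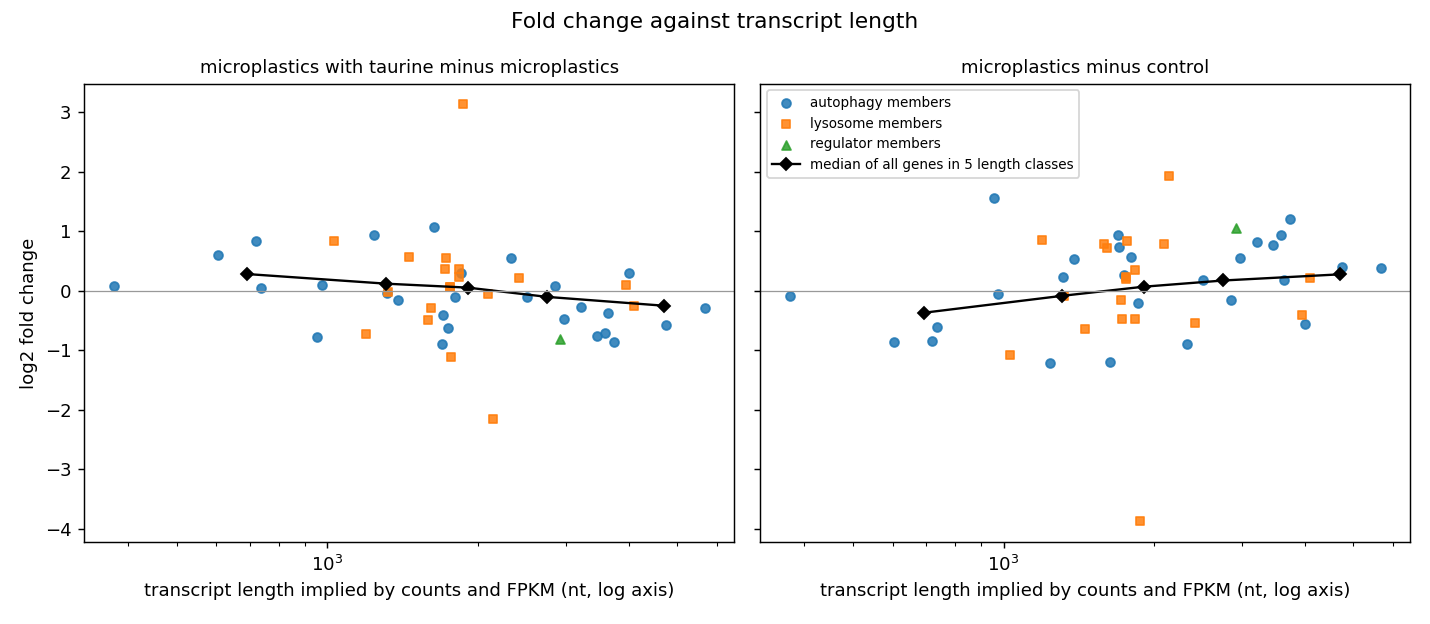
Log2 fold change of each member with a length against its transcript length in nucleotides (log axis), for taurine minus microplastics (left) and microplastics minus control (right); the line joins the medians of all genes in 5 length classes. The medians run from 0.28 down to -0.25 on the left and from -0.37 up to 0.27 on the right.

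Of 126 further autophagy, lysosome and MTORC1 genes found by symbol, 114 were tested. In microplastics minus control 19 were higher and 25 lower (38.6%), where the test called 24.3% of all genes. In taurine minus microplastics 17 were higher and 10 lower (23.7%), where it called 14.3%. With scaling by library size only, the counts were 41 higher and 14 lower in the first, where 37% of all genes were called, 4000 higher and 875 lower. They were 8 higher and 34 lower in the second, where 23.4% were called, 601 higher and 2488 lower. By group, 7 of 22 further autophagy genes were higher and 2 lower in microplastics minus control, 6 of 69 lysosome genes were higher and 16 lower, and 6 of 23 MTORC1 and RAG genes were higher and 7 lower, beside 9.67% higher and 14.7% lower of all genes. In taurine minus control 0 of the 114 were called by edgeR, DESeq2 or limma-voom, and 14 had an unadjusted p under 0.05 in edgeR. Of all 13190 genes tested, 750 had an unadjusted p under 0.05.

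LAMTOR3, part of the Ragulator complex that anchors RAG GTPases to the lysosome, had the largest decrease of these in microplastics minus control, at 59.5 ± 17.2 CPM in the microplastics libraries and 297 ± 56.4 CPM in the control libraries (log2 fold change -2.32 ± 0.23 SE, adjusted p = 5.91e-05). ATP6AP2, an accessory protein of the proton pump, stood at 95.9 ± 6.96 CPM in the microplastics libraries and 332 ± 71.1 CPM in the control libraries (log2 fold change -1.79 ± 0.24 SE, adjusted p = 0.000418). WDR45B, a PI3P-binding relative of the WIPI proteins, stood at 45.4 ± 2.22 CPM in the microplastics libraries and 149 ± 17.7 CPM in the control libraries (log2 fold change -1.71 ± 0.20 SE, adjusted p = 0.000195). In these 3 genes no microplastics library reached a control. Of the genes that rose, ATP6V1B1, a proton pump subunit, stood at 8.64 ± 1.77 CPM in the microplastics libraries and 2.52 ± 0.606 CPM in the control libraries (log2 fold change 1.78 ± 0.30 SE, adjusted p = 0.00157). ATG101, a partner of ATG13, stood at 51.8 ± 8.10 CPM in the microplastics libraries and 20.4 ± 3.18 CPM in the control libraries (log2 fold change 1.34 ± 0.20 SE, adjusted p = 0.000773). NPRL3, part of the GATOR1 complex that restrains MTORC1, stood at 14.3 ± 2.47 CPM in the microplastics libraries and 6.14 ± 2.98 CPM in the control libraries (log2 fold change 1.21 ± 0.39 SE, adjusted p = 0.0412). The NPRL3 call was lost without any microplastics library, taurine 2, control 1 or control 2 (0.97 to 1.35). It was also lost with a replicate block, and was kept in 12 of 19 alternatives.

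In taurine minus microplastics, LAMTOR3 rose most among these, at 218 ± 27.3 CPM in the taurine libraries and 59.5 ± 17.2 CPM in the microplastics libraries (log2 fold change 1.87 ± 0.23 SE, adjusted p = 0.000323). WDR45B stood at 136 ± 33.8 CPM in the taurine libraries and 45.4 ± 2.22 CPM in the microplastics libraries (log2 fold change 1.58 ± 0.20 SE, adjusted p = 0.000476). RHEB, the small GTPase that activates MTORC1, stood at 459 ± 107 CPM in the taurine libraries and 174 ± 4.96 CPM in the microplastics libraries (log2 fold change 1.40 ± 0.20 SE, adjusted p = 0.000792). All 3 were higher in every taurine library than in any microplastics library. TSC2, which switches RHEB off, fell to 4.26 ± 1.58 CPM in the taurine libraries, against 10.8 ± 2.35 CPM in the microplastics libraries (log2 fold change -1.35 ± 0.32 SE, adjusted p = 0.0154). That call was lost without microplastics 1 or microplastics 3 (-1.33 to -1.21). ATG101 fell to 22.7 ± 2.45 CPM in the taurine libraries, against 51.8 ± 8.10 CPM in the microplastics libraries (log2 fold change -1.19 ± 0.20 SE, adjusted p = 0.00233). PLEKHM1, an adaptor for fusion with the lysosome, fell to 12.01 ± 1.45 CPM in the taurine libraries, against 26.1 ± 1.48 CPM in the microplastics libraries (log2 fold change -1.12 ± 0.21 SE, adjusted p = 0.00428). The same microplastics libraries set the values of both comparisons.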

How the data were processed

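Per the labels, RNA of bovine oocytes was extracted with TRIzol and made into libraries by the sequencing provider. The aligner, counting program, genome build and annotation were not given in the sources used here. Per the file headers, the deposit by the authors holds estimated counts per transcript, with FPKM, TPM and a scaled signal, each with group means. The estimated counts were summed over 22590 transcripts to 17852 genes and rounded. FPKM was used only to infer transcript length from its ratio to the counts, the deposited TPM only to compare genes within a group, and the signal and the authors' means were not used.

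Gene IDs were given symbols from a RefSeq table, used for names only, which covered 95.2% of genes. Depth was 21.17 to 22.74 M reads, where a floor of 3 counts is 0.106 to 0.164 CPM and covers counting error only. Genes were tested with edgeR 4.0.16 in R 4.3.3: robust quasi-likelihood fit, TMM factors, the package filter (minimum count 10, minimum total 15), 1 coefficient per group over 9 libraries, two-sided, Benjamini-Hochberg over 13190 genes, called at adjusted p under 0.05. Errors are SD over 3 libraries, or SE for log2 fold changes. That SE is the absolute log2 fold change divided by the square root of the quasi-likelihood F statistic, and is approximate.

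The members, gene lists and rules were chosen with earlier results of these data known. Named with a fold change were called members, ULK1, BECN1, MAP1LC3B, SQSTM1, TFEB and LAMP1, and up to 3 higher and 3 lower other pathway genes with the largest fold change and at least 5 CPM; further members are given for their level, spread or fold change, chosen after their values were seen. Of the listed symbols, 4 other genes and 5 markers did not match and were left out. Alternatives were DESeq2 1.42.0 (size factors, Wald test), scaling by library size only, no filter, 5 CPM in 3 libraries, limma-voom (limma 3.58.1), only the compared groups, a replicate block, removal of a length trend, each library left out, and control 3 and taurine 3 left out.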

Additional observations from a re-analysis of the deposited data

How the results depend on the processing

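For microplastics minus control, 14 members were called (5 higher, 9 lower). The count was 24 (20 higher, 4 lower) with scaling by library size only, 9 with a replicate block and 23 (13 higher, 10 lower) without control 3 and taurine 3, and 7 to 21 with each library left out. Under the remaining alternatives it was 11 to 16. For taurine minus microplastics, 9 were called (5 higher, 4 lower), 13 (4 higher, 9 lower) when scaled by library size alone, 6 with the block, 5 to 10 with each library left out, and 7 to 11 otherwise. For taurine minus control, 0 were called under every alternative except without control 3 and taurine 3, where 4 were. Those 2 libraries were picked from their values in these same data, which favours more calls against control. Of 23 called member results, 11 were called in every setting run.

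No pairing by replicate number was seen. Deviations of same-numbered libraries correlated from -0.44 (taurine 3 with control 3) to 0.26, and 1 of 9 libraries correlated best with its own number. With 3 libraries per group this check cannot exclude a pairing.

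Signs changed in genes that were not called. For microplastics minus control, SQSTM1 was 0.25 when scaled by library size alone, 0.0278 without control 3 and taurine 3, and -0.34 to 0.0277 over the single libraries left out, positive without control 3. LAMP1 was -0.78 to 0.25 over the single libraries, positive without control 3, and 0.25 without both. For taurine minus microplastics, scaling by library size only gave -0.13 for SQSTM1 and -0.0515 for LAMP1. For taurine minus control, ULK1 was -0.25 to 0.71 over the single libraries, negative without taurine 1 or control 1 (-0.0300). SQSTM1 was -0.00763 with the length trend removed and -0.10 to 0.31 over the single libraries, negative without taurine 2 or control 2 (-0.0463). LAMP1 was 0.00810 in limma-voom, 0.0313 with the block, -0.42 to 0.59 over the single libraries, 0.11 without taurine 3, 0.59 without control 3 and 0.83 without both. Of 906 values of single genes under the alternatives, 779 kept their direction and their side of the threshold, 103 lost a call, 7 gained one and 17 changed sign. The causes of these changes were not tested. Most of the values are of results chosen because they were called, and the rest of ULK1, BECN1, MAP1LC3B, SQSTM1 and LAMP1. Other members that were not called are not counted, so the tally does not describe all members.

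TMM takes most genes as unchanged, and the labels give no RNA amount per oocyte against which to check that. Low counts limit TFEB, CTSL, WIPI1, GAA, GLB1, ATG10, ATG4B, ULK1, CTSA and LAMP3, each with 13 reads or fewer in at least 1 library.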
